A study of Homo sapiens with 6 samples.

Results

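The miR-181 family was followed in small RNA sequencing of A549, a long-established human line that came from an adenocarcinoma of the lung. The members were the rows of the deposited miRNA table that carry the names hsa-miR-181a-5p, hsa-miR-181a-3p, hsa-miR-181a-2-3p, hsa-miR-181b-5p, hsa-miR-181c-5p, hsa-miR-181c-3p and hsa-miR-181d-5p (written without the prefix hsa from here on), with rows of the same name summed over their loci. They are 7 of 2588 miRNA names, held in 9 of 2813 rows. The study sequenced 3 libraries of parental cells (Ctrl) and 3 libraries of cells in which the MIR21 locus was deleted by CRISPR/Cas9 (MIR21-KO), to ask what the loss of miR-21, an abundant oncogenic miRNA, does to these cells. Both groups were grown in the same serum-supplemented DMEM and were harvested 48 h after seeding, and neither received any other treatment named in the labels. The deletion was made with a pair of guide RNAs and checked in clones grown from sorted single cells, and the sources used here do not say whether the 3 MIR21-KO libraries came from 1 clone or several. The paper states for its experiments in general that they had at least 3 biological replicates. Nothing in the labels says that the libraries of a group came from separate cultures. P-values therefore measure the spread between these libraries, which may be technical.

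MicroRNAs are cut as short duplexes from hairpin precursors, and usually the 5p or the 3p strand of a duplex is kept by an Argonaute protein and guides it to mRNAs that pair with its seed, bases 2 to 8. The miR-181 family is best known from blood and immune cells, where it tunes antigen receptor signalling and lymphocyte development. It is also expressed in many epithelial and tumor cells, where its members have been described both as promoters and as inhibitors of growth.

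The mature sequences are shown because the family is defined by its shared seed and because near-identical members share most of their bases. All 7 members matched an entry in RefSeq (GRCh38.p14). Each line runs 5′ to 3′ with the seed in capitals, and the 4 strands from the 5′ arm, which share 1 seed, come before the 3 from the 3′ arm.
miR-181a-5p: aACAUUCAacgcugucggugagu
miR-181b-5p: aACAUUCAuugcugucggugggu
miR-181c-5p: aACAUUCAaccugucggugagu
miR-181d-5p: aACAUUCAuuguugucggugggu
miR-181a-3p: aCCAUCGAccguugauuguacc
miR-181a-2-3p: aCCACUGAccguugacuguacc
miR-181c-3p: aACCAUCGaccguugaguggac

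Counted from 1 at the 5′ end, miR-181a-5p and miR-181b-5p differ by A9U, C10U and A21G, with the base of miR-181a-5p given before the position. miR-181b-5p and miR-181d-5p differ by C12U alone, with the base of miR-181b-5p given before the position. miR-181c-5p equals miR-181a-5p without base 11, so it has 22 bases where the others of the 5′ arm have 23. The 3 strands of the 3′ arm each carry a seed of their own. How reads that fit several of these sequences were assigned is not given in the sources used here, so the split between near-identical members is uncertain to that extent.

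The members come from 6 hairpins in 3 pairs on GRCh38, and each pair lies within an intron of a longer gene (GENCODE 29). MIR181A1 (chr1:198859044-198859153, minus strand) and MIR181B1 (chr1:198858873-198858982, minus strand) lie 62 bases apart in an intron of the non-coding gene MIR181A1HG. MIR181A2 (chr9:124692442-124692551, plus strand) and MIR181B2 (chr9:124693710-124693798, plus strand) lie 1159 bases apart in an intron of the non-coding gene MIR181A2HG, which runs antisense to an intron of NR6A1. MIR181C (chr19:13874699-13874808, plus strand) and MIR181D (chr19:13874875-13875011, plus strand) lie 67 bases apart in an intron of NANOS3. miR-181a-5p and miR-181b-5p arise from both the chromosome 1 and the chromosome 9 pair and have 2 rows each. miR-181a-3p comes from MIR181A1 only and miR-181a-2-3p from MIR181A2 only, so the reads of these 2 strands tell the loci apart while those of miR-181a-5p do not. The row listed before the other held 49.8 to 52.0% of the reads of miR-181a-5p and 42.9 to 48.2% of those of miR-181b-5p in the 6 libraries.

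The libraries held 5577287 to 9768152 miRNA reads. The targeted miRNA checked the labels: miR-21-5p and miR-21-3p took 65.5, 68.5 and 69.6% of the miRNA reads in Ctrl against 0.0241, 0.0156 and 0.0254% in MIR21-KO. The authors' values are TMM-scaled CPM, reads per library relative to an adjusted library total, in which the level of most miRNAs is set equal between libraries, so that a change shared by most miRNAs would not be seen. The libraries fell into 2 sets that cut across the groups. Over the 600 tested miRNAs outside the family, the first principal component, with 63.4% of the variance, placed Ctrl replicates 1 and 2 and MIR21-KO replicate 3 on one side (set A) and Ctrl replicate 3 and MIR21-KO replicates 1 and 2 on the other (set B). The libraries of set B had more miRNA reads (7244400 to 9768152) than those of set A (5577287 to 6871585) and more rows above 0 (1151 to 1368 against 938 to 1130). The labels give no batch, and the sets are not groups of the study. The paper states that small RNA libraries were made with a NEXTflex kit or by Novogene and sequenced in Dresden or by Novogene. It does not say which library took which route, and what sets the libraries apart was not tested. Comparisons of MIR21-KO with Ctrl for the members are therefore given over all libraries and within the sets. Members of the epithelial miR-200 family were present. Summed values of the epithelial marker list were 1374 to 2171 in Ctrl and 879 to 1269 in MIR21-KO. The largest part was miR-200b-3p, at 530 to 1953, while miR-141-3p was at 0.130 to 2.68 and miR-205-5p reached at most 0.288. Of the 6 markers 5 were tested, and 0 were called over all libraries. With a term for the library set in the fit, miR-200c-3p was called higher (0.91 on the log2 scale, limma, adjusted p = 0.0496) and miR-200a-3p and miR-200b-3p lower (-0.91 and -0.92, limma, adjusted p = 0.0335 and 0.0288). The 4 markers of other blood cells, the cells the family is best known from, summed to at most 1.89. The hepatocyte marker miR-122-5p was at 51.9 to 141 in set A and 7.90 to 16.2 in set B, and the summed muscle markers were at 11.8 to 71.1 and 5.93 to 22.9. The summed erythroid markers were at 137 to 218 in Ctrl and lower, at 78.3 to 92.7, in MIR21-KO, with 2 of 4 tested and 0 called over all libraries. With the set term miR-486-5p of the erythroid list was called lower (-0.90, limma, adjusted p = 0.0270) and miR-1-3p of the muscle list higher (1.53, limma, adjusted p = 0.0224). Their part in the results was not tested.

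miR-181a-5p, the most abundant member by its mean, differed between the sets far more than between the conditions. It stood at 217, 201 and 1970 TMM-scaled CPM in Ctrl replicates 1, 2 and 3 and at 2513, 1825 and 265 in MIR21-KO replicates 1, 2 and 3. The 3 libraries of set B lay between 1825 and 2513 and the 3 of set A between 201 and 265, so the sets did not overlap while the groups did. It ranked between 40 and 43 among all miRNAs by its value in set B and between 114 and 122 in set A. The reads behind these values ran from 742 to 34890, so counting error is small beside the difference. In bulk libraries like these, fewer cells with a miRNA and less of it per cell cannot be told apart. The group means were 796 ± 1017 in Ctrl and 1534 ± 1152 in MIR21-KO (SD, n = 3 each), and the log2 fold change was 1.27 (limma, standard error 1.1, adjusted p = 0.719). Within the sets the fold of MIR21-KO over Ctrl in TMM-scaled CPM was 1.27 in set A and 1.10 in set B. Set B stood 9.45-fold above set A in Ctrl and 8.19-fold in MIR21-KO. The small folds within sets were not kept in shares of the reads other than miR-21. In set A MIR21-KO, at 0.0366%, lay between the Ctrl libraries, at 0.0342 and 0.0381%. In set B MIR21-KO was lower, at 0.402 and 0.349% against 0.471% in Ctrl.

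miR-181b-5p, which is made from the hairpins beside those of miR-181a-5p, was split between the sets in the same way. It was at 198, 193 and 1005 TMM-scaled CPM in the 3 Ctrl libraries and at 1904, 1483 and 319 in the 3 MIR21-KO libraries. Within each set the MIR21-KO libraries all exceeded the Ctrl libraries, by 1.63-fold in set A and 1.68-fold in set B in TMM-scaled CPM. In shares of the reads other than miR-21 the order held with a smaller excess. These shares were 0.0440% in MIR21-KO against 0.0313 and 0.0367% in Ctrl in set A. In set B they were 0.305 and 0.284% against 0.240%. Over all libraries the means were 465 ± 468 and 1235 ± 821 (SD, n = 3 each), which overlapped, and the log2 fold change was 1.51 (limma, standard error 0.90, adjusted p = 0.592).

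miR-181d-5p, the partner of miR-181c in the chromosome 19 pair, had a level lower by several fold and the same pattern. It was at 55.8, 46.5 and 239 in Ctrl and at 384, 290 and 63.1 in MIR21-KO. The sets were again apart, at 46.5 to 63.1 and 239 to 384, and the groups overlapped. The log2 fold change was 1.16 (limma, standard error 0.89, adjusted p = 0.675), and the folds within sets were 1.23 and 1.41.

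miR-181c-5p was the scarcest member, at 2.67, 1.08 and 13.4 TMM-scaled CPM in Ctrl against 11.2, 5.77 and 0.910 in MIR21-KO. Set B was above set A here too, but set A rested on 10, 4 and 7 reads. In MIR21-KO replicate 3, 7 reads correspond to 1.26e-04% of the reads other than miR-21, with a 95% Wilson interval of 6.08e-05 to 2.59e-04% that covers counting error only. The log2 fold change over all libraries was 0.17 (limma, standard error 0.89, adjusted p = 0.938). Within the sets it was the 1 member lower in MIR21-KO in both, at 0.485-fold in set A and 0.634-fold in set B.

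miR-181a-2-3p, the 3p strand of MIR181A2, went against the other members between the sets and was the member whose level most clearly differed between the conditions within them. It was at 603, 477 and 205 TMM-scaled CPM in Ctrl and at 510, 496 and 1158 in MIR21-KO. Ctrl replicate 3 was the lowest and MIR21-KO replicate 3 the highest, and the remaining 4 libraries lay between 477 and 603. Within set A the MIR21-KO library was 2.15-fold above the mean of the Ctrl libraries, and within set B the MIR21-KO libraries were 2.46-fold above the Ctrl library. The means over all libraries were 428 ± 203 and 721 ± 378 (SD, n = 3 each), and the log2 fold change of 0.77 did not pass the test (limma, standard error 0.59, adjusted p = 0.671). Set B lay below set A by 1.29 on the log2 scale, with overlap.

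miR-181a-3p, the corresponding strand of MIR181A1, was at 44.1, 43.2 and 165 in Ctrl and at 103, 114 and 52.7 in MIR21-KO. Its sets were apart and its groups nearly equal in the mean, at 84.1 ± 70.0 and 90.1 ± 32.9 (SD, n = 3 each). The log2 fold change was 0.32 (limma, standard error 0.66, adjusted p = 0.832), and the folds within sets pointed in different directions, at 1.21 in set A and 0.660 in set B. miR-181c-3p was at 9.08, 9.73 and 35.1 in Ctrl and at 45.9, 43.8 and 17.7 in MIR21-KO. In TMM-scaled CPM each MIR21-KO library exceeded the Ctrl libraries of its own set, by 1.88-fold and 1.28-fold. The log2 fold change over all libraries was 1.11 (limma, standard error 0.66, adjusted p = 0.592).

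Over the family, all 7 members passed the filter on low values (at least 1 in at least 3 libraries), and 0 of 7 were called in either direction at an adjusted p under 0.05 (limma, 607 miRNAs tested). Of all tested miRNAs 0% were called higher and 0.824% lower. Without adjustment for multiple tests, 41 miRNAs were higher and 27 lower at a p under 0.05, among them 0 members. edgeR's quasi-likelihood test on the recovered reads called 0 members beside 0% of all miRNAs higher and 0.824% lower, and DESeq2 called 0 members beside 0.667% higher and 3.17% lower. The log2 fold change was above 0 for 7 of 7 members, against 61.8% of all miRNAs, with a median of 1.11 for the members and 0.24 for all. The members share hairpins and library sets and are not replicates of each other. No member had all MIR21-KO libraries above all Ctrl libraries, a pattern seen in 9.56% of tested miRNAs, and none had them all below, a pattern seen in 6.59%. Within both sets the MIR21-KO libraries all exceeded the Ctrl libraries in TMM-scaled CPM for 4 members, miR-181a-2-3p, miR-181b-5p, miR-181c-3p and miR-181d-5p (background 30.0%). They were all below them for 1, miR-181c-5p (background 17.6%). In shares of the reads other than miR-21, miR-181c-3p and miR-181d-5p no longer kept this pattern. In set B miR-181c-3p was at 0.00839% in Ctrl replicate 3 against 0.00735 and 0.00838% in MIR21-KO replicates 1 and 2. In set A miR-181d-5p was at 0.00883 and 0.00884% in Ctrl replicates 1 and 2 against 0.00870% in MIR21-KO replicate 3. Scaling each library to all of its reads, miR-21 included, moved the median over all miRNAs from 0.24 to 1.34 and that over the members from 1.11 to 2.41. With that scaling 2 members were called higher, miR-181a-2-3p at 2.15 (limma, adjusted p = 0.0283) and miR-181c-3p at 2.41 (limma, adjusted p = 0.0475), beside 32.3% of all miRNAs, and 0 members lower, beside 1.15%.

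A fit with a further term for the library set gave a smaller standard error for every member. The sets were read from the libraries under test, and the p-values of this fit therefore depend on that choice. With the term, miR-181a-2-3p was higher in MIR21-KO by 1.20 on the log2 scale with a standard error of 0.24 (limma, adjusted p = 0.00296), and miR-181b-5p by 0.72 with a standard error of 0.23 (limma, adjusted p = 0.0465). These were 2 of 7 members, where 11.7% of all tested miRNAs were called higher and 6.43% lower. miR-181a-5p, whose sequence differs from miR-181b-5p outside the seed only, was at 0.23 with a standard error of 0.24 (limma, adjusted p = 0.551). miR-181d-5p was at 0.39, miR-181c-3p at 0.59, miR-181a-3p at -0.17 and miR-181c-5p at -0.60, and none of these passed the test (limma, adjusted p from 0.170 to 0.741). miR-181c-5p passed it when Ctrl replicate 2 was left out (limma, adjusted p = 0.0363). The call of miR-181a-2-3p was lost when Ctrl replicate 3 (limma, adjusted p = 0.0992) or MIR21-KO replicate 3 (limma, adjusted p = 0.0607) was left out of this fit. That of miR-181b-5p was met in 2 of 10 fits with the term (limma and edgeR, adjusted p from 0.0144 to 0.291). Of these fits, those with edgeR, with centring on the median and with totals of the reads other than miR-21 called miR-181a-2-3p alone among the members, beside 8.4, 5.77 and 3.13% of all miRNAs called higher and 5.44, 7.25 and 10.7% lower.

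**Figure D1:**
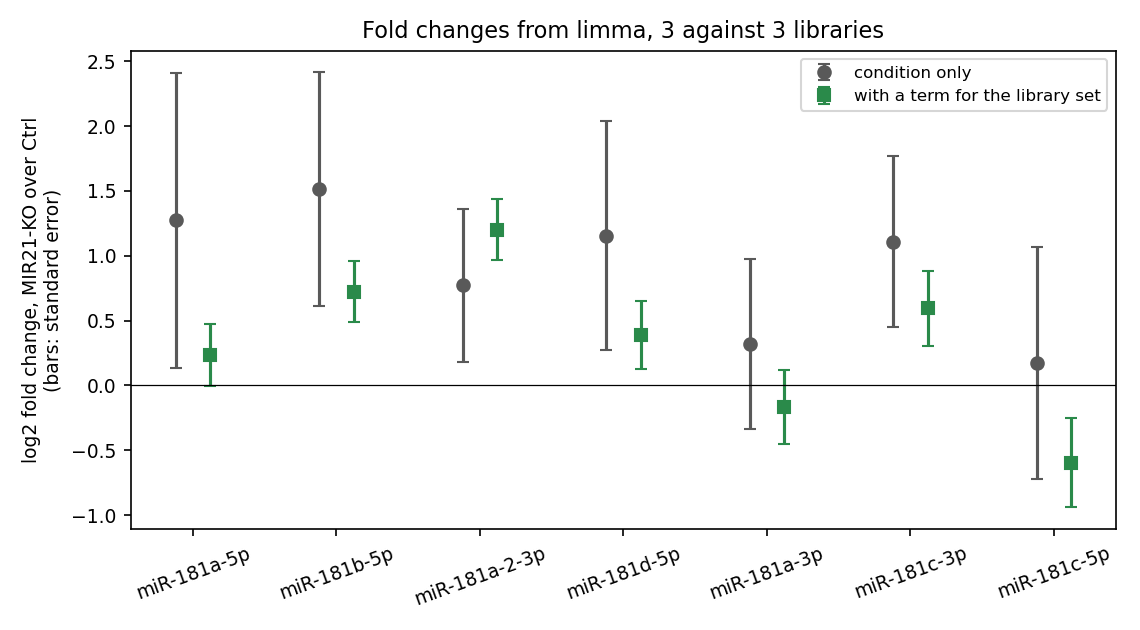
Log2 fold change of MIR21-KO over Ctrl for each member (points) with its standard error (bars), from limma over 3 against 3 libraries, with condition as the only term (grey circles) or with a term for the library set (green squares). With the term miR-181a-2-3p stands at 1.20 and miR-181b-5p at 0.72, and miR-181c-5p moves from 0.17 to -0.60.

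The difference between the library sets was large for this family beside other miRNAs. On the log2 scale set B exceeded set A by 3.12 for miR-181a-5p, which ranked 3 among 607 tested miRNAs. The value was 2.38 for miR-181b-5p, 2.32 for miR-181c-5p and 2.3 for miR-181d-5p. The 3p strands stood lower, with 1.55 for miR-181c-3p, 1.46 for miR-181a-3p and -1.29 for miR-181a-2-3p. For 6 of 7 members all libraries of set B exceeded all of set A, against 35.1% of all tested miRNAs, and for 0 members they were all below, against 22.1%. The median difference was 2.3 over the members and 0.20 over all miRNAs, whose quartiles were at -0.66 and 1.1. These values describe the libraries and were given no test.

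Set B was higher in the 5p strands and lower in miR-181a-2-3p, and the arm that made up most of the family changed with the set. The 7 members together took 4226, 3591 and 25741 reads in the Ctrl libraries and 75960, 59031 and 14429 in the MIR21-KO libraries. The 5p strands held 41.9, 45.4 and 88.9% of these reads in Ctrl against 88.0, 84.6 and 34.5% in MIR21-KO. They were thus the larger part in every library of set B and the smaller part in every library of set A, whatever the condition. A ratio within a library does not depend on its scaling.

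**Figure D2:**
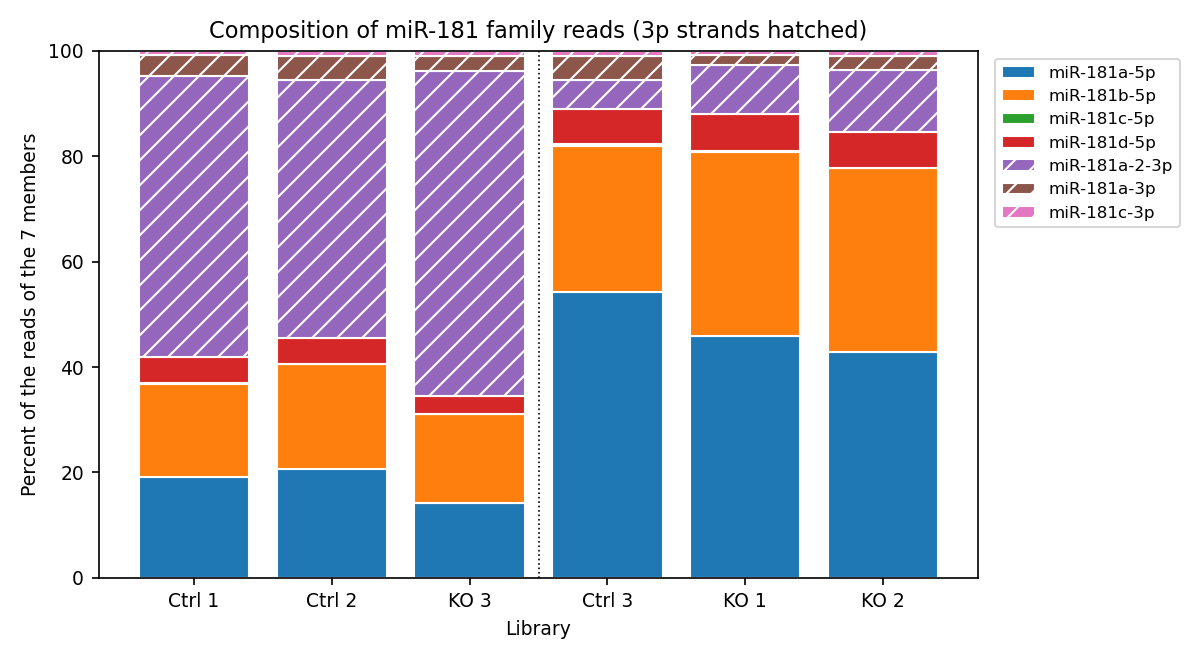
Share of each member among the reads of the 7 members, in percent, for the 3 libraries of set A on the left of the dotted line and the 3 of set B on the right, with 3p strands hatched. The 5p strands hold 34.5 to 45.4% in set A and 84.6 to 88.9% in set B.

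As a share of the reads other than miR-21, the 4 strands of the 5′ arm took 0.0748, 0.0839 and 0.771% in Ctrl against 0.771, 0.690 and 0.0894% in MIR21-KO. Ctrl replicate 3 and MIR21-KO replicate 1 thus had nearly the same share. The groups did not differ beyond their spread in this share (two-sided exact permutation test over 6 libraries, p = 0.6) or in the summed TMM-scaled CPM of these strands, at 1380 ± 1600 and 3021 ± 2142 (SD, n = 3 each, exact permutation p = 0.2). Within the sets the difference of MIR21-KO minus Ctrl was 0.01 percentage points in set A and -0.0409 in set B for the share, and 191 in set A and 980 in set B for the summed TMM-scaled CPM. With 3 libraries against 3 the test cannot go below 0.1, and the lowest adjusted p over the 6 sums, shares and ratios tested this way was 0.9.

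Within the 5′ arm, miR-181a-5p held 45.8, 45.5 and 61.0% of the reads in Ctrl against 52.2, 50.7 and 40.9% in MIR21-KO. The difference of MIR21-KO minus Ctrl was -4.74 percentage points within set A and -9.61 within set B, and over all libraries the groups overlapped (exact permutation p = 0.8). miR-181b-5p held 31.1 to 49.2%, miR-181d-5p 7.40 to 11.8% and miR-181c-5p 0.140 to 0.565%. miR-181b-5p exceeded miR-181a-5p in 1 library, MIR21-KO replicate 3.

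The ratio of miR-181a-5p to the sum of its 3p strands was 0.335, 0.386 and 5.33 in Ctrl against 4.10, 2.99 and 0.219 in MIR21-KO. The 5p strand was thus the scarcer in set A and the more abundant in set B. On the log2 scale MIR21-KO minus Ctrl was 0.65 over all libraries (exact permutation p = 1.0) but -0.72 within set A and -0.61 within set B. The ratio of miR-181a-2-3p to miR-181a-3p sets a strand of the chromosome 9 hairpin against a strand of the chromosome 1 hairpin. These strands differ in sequence, and whether their ratio follows the output of the hairpins was not tested. The ratio was chosen after the values were seen. It was 13.7, 11 and 1.24 in Ctrl against 4.94, 4.34 and 22 in MIR21-KO. It was above 1 in every library, and MIR21-KO was above Ctrl by 0.84 on the log2 scale within set A and by 1.90 within set B (over all libraries exact permutation p = 0.8).

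For MIR181C the 3p strand was the more abundant in all 6 libraries. The ratio of miR-181c-5p to miR-181c-3p was 0.294, 0.111 and 0.382 in Ctrl against 0.245, 0.132 and 0.0515 in MIR21-KO. It was lower in MIR21-KO within set A (-1.81 on the log2 scale) and within set B (-1.09), while over all libraries the difference of -0.97 did not exceed the spread (exact permutation p = 0.3). In Ctrl replicate 2 the 5p strand made up 10.0% of the reads of both strands, with a 95% Wilson interval of 3.96 to 23.1%, and in MIR21-KO replicate 3 it made up 4.90%, with an interval of 2.39 to 9.76%. These intervals overlap, while that of Ctrl replicate 1, at 22.7% with an interval of 12.8 to 37.0%, lies above the interval of MIR21-KO replicate 3. In set B the share was 27.6% in Ctrl replicate 3, with an interval of 23.2 to 32.6%, which lies above those of MIR21-KO replicate 1 (17.1 to 22.6%) and replicate 2 (9.46 to 14.3%). The intervals cover counting error and not the spread between libraries.

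The shift of miR-181a-5p against miR-181a-2-3p between the sets was 4.42 on the log2 scale. It was set beside 156 pairs of tested 5p and 3p strands whose names share a stem. The combination itself is not among these pairs, and miR-181a-5p also holds reads of MIR181A1. Of the pairs 6 had a shift of greater size, the median size was 1.31 and the largest 5.64. The shift was 2.74 for miR-181b, 1.66 for miR-181a-5p against miR-181a-3p and 0.77 for miR-181c. By size these ranked 24, 60 and 109 among the 156 pairs. The comparison of miR-181a-5p with miR-181a-2-3p was chosen after the values were seen and was given no test.

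By mean TMM-scaled CPM over the 6 libraries the order was miR-181a-5p (1165), miR-181b-5p (850), miR-181a-2-3p (575), miR-181d-5p (180), miR-181a-3p (87.1), miR-181c-3p (26.9) and miR-181c-5p (5.85). Each read stands for a strand of 22 or 23 bases, so no correction for length was made. miR-181a-5p and miR-181b-5p did not differ beyond their spread (log2 ratio 0.27 ± 0.42 SD over 6 libraries), and neither did miR-181b-5p and miR-181a-2-3p (0.17 ± 1.95), whose order turned between the sets. miR-181a-2-3p was also above miR-181a-5p in the 3 libraries of set A, where it was the most abundant member, and below it in the 3 of set B. miR-181a-2-3p exceeded miR-181d-5p in 5 of 6 libraries (1.99 ± 1.88). miR-181d-5p exceeded miR-181a-3p, miR-181a-3p exceeded miR-181c-3p and miR-181c-3p exceeded miR-181c-5p in 6 of 6 libraries, with log2 ratios of 0.75 ± 0.71, 1.80 ± 0.48 and 2.59 ± 1.07.

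Of the other strands cut from the same hairpins, miR-181b-3p (from MIR181B1) was at 7.21, 9.46 and 7.48 TMM-scaled CPM in Ctrl and at 10.5, 16.7 and 20.5 in MIR21-KO. In these values all MIR21-KO libraries were above all Ctrl libraries. In shares of the reads other than miR-21 they were not. There MIR21-KO replicate 1, at 0.00168%, lay below Ctrl replicates 2 and 3, at 0.00180 and 0.00179%. In TMM-scaled CPM miR-181b-3p was not called over all libraries (log2 fold change 0.86, standard error 0.42, limma, adjusted p = 0.513). It was called when the set term was added (0.99, limma, adjusted p = 0.0430). miR-181b-2-3p (from MIR181B2) was at 2.43 to 4.81 in Ctrl and at 3.60 to 7.93 in MIR21-KO (log2 fold change 0.52, limma, adjusted p = 0.70). Neither of these 3p strands was apart between the sets, unlike miR-181b-5p, and the ratio of miR-181b-5p to both of them was 16.5, 16.2 and 95 in Ctrl against 135, 68.5 and 11.2 in MIR21-KO. miR-181d-3p had 0 to 4 reads a library and was not tested. miR-4262, the 1 further name of the table whose bases 2 to 8 equal the seed of miR-181a-5p, had 0 reads in all 6 libraries.

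Within 50 kb of a miR-181 hairpin the table held 6 further miRNAs, all with a hairpin in the cluster of miR-23a, miR-27a and miR-24-2. This cluster lies near MIR181C and MIR181D. Rows of the same name were summed over loci, so a value may include reads from a hairpin outside the cluster. Of these 6 miRNAs 0 were called. Their log2 fold changes ran from -1.15 for miR-27a-5p to 1.02 for miR-23a-3p, and with the set term from -0.52 for miR-27a-5p to 0.71 for miR-23a-5p, again with 0 called. miR-23a-3p shared the set pattern of miR-181c and miR-181d, with set B above set A by 2.23. The other strands of the cluster did not, with set differences of -0.28 to -1.86.

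Of 8 miRNAs known beside miR-181 from blood and immune cells, 4 passed the filter on low values and 0 were called over all libraries. miR-146a-5p, a brake on NF-κB signalling, had means of 658 ± 468 in Ctrl and 3110 ± 1618 in MIR21-KO (SD, n = 3 each) and a log2 fold change of 2.29 (limma, adjusted p = 0.276), which the set term changed to 1.75 with a call (limma, adjusted p = 1.06e-04). miR-155-5p, miR-17-5p and miR-92a-3p had log2 fold changes of 0.87, 0.26 and -0.64 over all libraries (limma, adjusted p from 0.513 to 0.929). With the set term these were 0.74, -0.67 and -0.61, and none passed the test there either (limma, adjusted p from 0.0646 to 0.104). The value of miR-17-5p thus turned in sign, and was below 0 within set A (-0.56) and within set B (-0.79). miR-223-3p, miR-142-3p, miR-142-5p and miR-150-5p reached at most 1.08 in any library.

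Among 325 miRNAs outside the family with a mean value of at least 10, those whose log2(value + 1) followed miR-181a-5p most closely over the 6 libraries were miR-484 (r = 0.993), miR-191-5p (r = 0.993), miR-769-3p (r = 0.992), miR-376c-3p (r = 0.992) and miR-23b-3p (r = 0.991). The 6 points share their libraries and fall into the 2 sets, and 77 of 325 miRNAs had an r above 0.9. Within the family r with miR-181a-5p was 0.994 for miR-181d-5p, 0.982 for miR-181b-5p and -0.55 for miR-181a-2-3p. Those closest to miR-181c-5p were miR-548k (r = 0.980), miR-210-3p (r = 0.972), miR-196b-5p (r = 0.971), miR-140-5p (r = 0.964) and miR-200a-3p (r = 0.958). miR-484 itself was at 102 to 216 in Ctrl and at 111 to 217 in MIR21-KO, with the same 3 libraries on the high side as for miR-181a-5p.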

How the data were processed

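Small RNA of 6 A549 libraries was compared, 3 Ctrl and 3 MIR21-KO, grouped by their labels. The authors deposited 1 signal value per miRNA row and library, a TMM-scaled CPM, and columns of their own comparison (fold changes, p-values, FDRs) that were not used. The submitters' processing notes name cutadapt 1.14, Bowtie2 2.3.2, SAMtools 1.5, featureCounts 1.5.3, edgeR 3.18.1 and the build hg38. The counting of reads that fit several loci is not given in the sources used here. Dividing by the value of 1 read gave whole reads for 100% of the nonzero values (tolerance 0.0001 reads). Recomputed TMM factors ran from 0.545 to 1.91.

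Rows of 1 name were summed. Values were taken as log2(value + 1), which understates changes of low miRNAs, and fitted with limma 3.58.1 in R 4.3.3 (eBayes with trend, condition as the only term). The fit covered 607 miRNAs that reached a value of 1 in 3 or more libraries. P-values are two-sided with Benjamini-Hochberg adjustment over all miRNAs tested. For sums, shares and ratios a two-sided exact permutation test over the libraries was used. Reads carry no molecular identifiers, so Wilson intervals cover counting error only. edgeR 4.0.16 and DESeq2 1.42.0 were run on the recovered reads as alternatives, on which edgeR called 0 miRNAs higher and 5 lower. The limma, edgeR and DESeq2 fits with condition as the only term were run on simulated data that held no library sets. The fit with the set term was not simulated. The term for the library set used the sign of the first principal component over 600 miRNAs outside the family, and its combinations with edgeR, other scalings and left-out libraries were added after the data were seen.

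The replicate numbers did not pair the samples: same-numbered Ctrl and MIR21-KO libraries had correlations of their deviations of -0.79, -0.60 and -0.88. No replicates agreed within sampling noise (chi-square per degree of freedom 130 to 2560). The miRNAs named are the 7 members, the other strands of their hairpins, miRNAs with the same seed, neighbours within 50 kb, the 5 most correlated with miR-181a-5p and with miR-181c-5p, miR-21, a list of immune miRNAs and cell type markers. The members and lists were chosen with earlier results of these data known. Sequences are from RefSeq (GRCh38.p14) and hairpin positions from GENCODE 29. Tables and plots were made with Python 3.11.15 (scipy 1.17.1, pandas 2.3.3, numpy 2.4.6, matplotlib 3.10.9).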

Additional observations from a re-analysis of the deposited data

How the results depend on the processing

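Over all libraries, 5 miRNAs were lower and 0 higher in MIR21-KO, and 2 of the 5 were miR-21-5p and miR-21-3p of the deleted locus. The lower count was 3 with a pseudocount of 10, 19 with DESeq2 and 2 with the replicate block, and the higher count was 196 with scaling to all reads and 4 with DESeq2. The block, the replicate number as a further term, changed no call of a member. With the library set term the counts were 71 higher and 39 lower, with edgeR and the term 51 and 33, with median centring and the term 35 and 44, and with scaling to reads other than miR-21 and the term 19 and 65. Members called higher, 0 at the start, were 2 with scaling to all reads, 2 with the set term and 1 in each of the other 3 fits with it. With each library left out in turn, with or without the term, 0 to 122 miRNAs were higher and 2 to 71 lower, 0 to 2 members were higher and 0 to 1 lower. Over all libraries the lower count was 2 without Ctrl replicate 1 or MIR21-KO replicate 1 or 2 and 3 without Ctrl replicate 2 or MIR21-KO replicate 3. With the term, leaving out Ctrl replicate 3 gave 4 higher and 11 lower, Ctrl replicate 2 gave 122 and 71, and MIR21-KO replicates 1, 2 and 3 gave 25 and 19, 30 and 17, and 9 and 12. The 1 lower member was miR-181c-5p, with the term and without Ctrl replicate 2.

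The sign held under every alternative run for miR-181a-2-3p, miR-181b-5p, miR-181c-3p and miR-181d-5p, but the size did not. With the term and scaling to reads other than miR-21, miR-181d-5p was at 0.0055 with a standard error of 0.22, so its direction was not resolved there. In that fit miR-181c-3p was at 0.22 with a standard error of 0.28, miR-181b-5p at 0.33 and miR-181a-2-3p at 0.81. Leaving out Ctrl replicate 3 or MIR21-KO replicate 3 moved the log2 fold change of miR-181a-2-3p to 0.31 or 0.37, of miR-181a-5p to 2.35 or 2.28, of miR-181b-5p to 2.3 or 2.31, of miR-181d-5p to 1.89 or 1.95 and of miR-181c-3p to 1.71 or 1.54. Leaving out 1 of the other 4 libraries gave 0.66 to 0.89 for miR-181a-5p and 0.66 to 0.86 for miR-181d-5p. The log2 ratio of the summed 5p values was 0.62 to 2.72 with a library left out, highest without Ctrl replicate 3 and lowest without MIR21-KO replicate 1, and the difference in their share was 0.0796 to 0.437 percentage points, with its ends at the same libraries. The log2 fold change of miR-181a-5p turned to -0.16 with the term and scaling to reads other than miR-21. That of miR-181a-3p turned to -0.14 with DESeq2 and to -0.17, -0.18, -0.31 and -0.55 in the 4 fits with the term, and ran from -0.60 to 0.95 with a library left out. That of miR-181c-5p turned to -0.0054 with scaling to reads other than miR-21, -0.067 with median centring, -0.24 with DESeq2 and -0.60, -0.76, -0.73 and -0.87 with the term, and ran from -0.78 to 0.97. It was not tested under a mean value of at least 10, since its mean is lower. With a library left out, the MIR21-KO minus Ctrl difference ran from -5.49 to 2.28 percentage points for the share of miR-181a-5p in the 5′ arm, from -0.13 to 1.99 (log2) for its ratio to its 3p strands and from -0.66 to 1.07 for miR-181a-2-3p to miR-181a-3p. The causes were not tested.

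The sets leave 1 library of either group alone in a set, so values within a set have no replicate on that side. The depth limits miR-181c-5p, at 4 to 10 reads a library in set A, and leaves miR-181d-3p untested.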
